A study of Mus musculus with 8 samples.

Results

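The genes described here are 10 markers of the intestinal stem cell and of Wnt signalling in the crypt: Lgr5, Olfm4, Ascl2, Smoc2, Axin2, Sox9, Rnf43, Znrf3, Lrig1 and Msi1. They were listed by symbol as known markers of the mouse crypt, with earlier results of these data already known, and each matched 1 Ensembl identifier among the 56980 in the count data. Of the 10 genes, 9 had at least 10 counts in at least 4 libraries and were tested for a genotype difference with the 15986 genes that met that minimum, while Ascl2 did not reach it. RNA was sequenced from scraped jejunal mucosa of male mice in 8 libraries, 4 from floxed controls (FFA2 fl/fl, no Cre) and 4 from littermates that carried the same floxed alleles with Adiponectin-Cre (Adipoq-F2-KO). FFA2 is a receptor for short-chain fatty acids, and Adiponectin-Cre removes it in adipocytes, so the jejunal epithelium was not the deleted tissue. All mice received chow until 12 weeks of age and then a Western diet with 10% fructooligosaccharides (WD + FOS), a fermentable fiber, for 2 weeks in thermoneutral housing, so no library came from another diet. The question here was whether the stem cell and Wnt programme of the crypt differed between these genotypes.

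The intestinal epithelium is renewed from stem cells at the base of the crypts, which lie between Paneth cells and divide into transit amplifying cells that move towards the villus. Wnt ligands bind Frizzled and LRP receptors, which halts the degradation of β-catenin, and β-catenin then enters the nucleus and activates target genes through TCF/LEF factors. R-spondins bound to LGR receptors prolong the signal by removing RNF43 and ZNRF3, while AXIN2, RNF43 and ZNRF3 are themselves Wnt targets and limit the pathway. Notch signals hold stem cells undifferentiated, BMP signals from the villus side oppose stemness, and EGF signals drive division.

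The promoter windows of the stem cell markers Olfm4 and Ascl2 and of the Wnt feedback gene Axin2 are shown because these genes stand for 3 inputs, Notch, the stem cell transcription factor itself, and Wnt. Each window runs from 250 bases before to 50 bases after the start of transcription in RefSeq (mouse assembly GRCm38.p6), 5′ to 3′ on the strand of the gene, and capitals mark a match to a searched motif. The windows lie at chr14:80000052-80000351 (plus strand, Olfm4), chr7:142969215-142969514 (minus strand, Ascl2) and chr11:108920099-108920398 (plus strand, Axin2).
Olfm4: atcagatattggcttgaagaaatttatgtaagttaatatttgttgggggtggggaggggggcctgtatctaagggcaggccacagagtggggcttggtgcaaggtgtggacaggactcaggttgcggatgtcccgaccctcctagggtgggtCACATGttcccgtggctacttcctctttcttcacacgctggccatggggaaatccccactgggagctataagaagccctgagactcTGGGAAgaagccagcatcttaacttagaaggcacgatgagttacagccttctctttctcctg
Ascl2: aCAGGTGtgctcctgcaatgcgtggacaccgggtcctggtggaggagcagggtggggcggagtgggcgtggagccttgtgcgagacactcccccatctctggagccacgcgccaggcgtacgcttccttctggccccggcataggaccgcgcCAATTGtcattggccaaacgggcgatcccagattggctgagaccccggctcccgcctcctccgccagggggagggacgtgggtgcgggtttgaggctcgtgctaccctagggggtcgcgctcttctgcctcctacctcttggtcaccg
Axin2: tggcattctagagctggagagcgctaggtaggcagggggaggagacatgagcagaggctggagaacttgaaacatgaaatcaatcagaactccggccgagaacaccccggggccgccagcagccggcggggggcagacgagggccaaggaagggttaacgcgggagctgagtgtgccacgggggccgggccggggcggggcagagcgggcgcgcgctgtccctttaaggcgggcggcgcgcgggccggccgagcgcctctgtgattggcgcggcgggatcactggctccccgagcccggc
Of the 10 genes, 5 had such a window, the others being Rnf43, with 2 windows, and Lrig1, which makes 6 windows. The TCF/LEF core CTTTGA, searched on both strands, was in 0 of the 6 windows, and 16% of all 32851 windows of the same length held it. The RBPJ core TGGGAA, through which Notch acts, was found 1 time, in the Olfm4 window 12 to 7 bases before the start, and 25.6% of all windows held it. The E-box CANNTG, the class of site that ASCL2 binds, was found 1 time in the Olfm4 window, 2 times in the Ascl2 window and 1 time in a Rnf43 window, and 72.3% of all windows held it. G and C made up 52.3% of the Olfm4 window, 67% of the Ascl2 window and 70% of the Axin2 window, beside a median of 52.7% over all windows. These matches are letters in a window and say nothing of binding in the jejunum.

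Total counts were 6007654 to 21712776 per library, and 3 libraries (floxed 3, Adipoq-F2-KO 3 and Adipoq-F2-KO 4) held fewer than 10000000. The 10 genes together took 188.53 counts per 1000000 in floxed 4, the lowest, to 279.48 in floxed 1, the highest. Epithelial markers were high in every library, with 31450 to 40390 normalized counts of Vil1, a brush border protein, and 25720 to 35010 of Krt20, a keratin of differentiated villus cells. Smooth muscle RNA was also present and differed widely between libraries, with Myh11, smooth muscle myosin, at 64.8 to 9682 normalized counts in the floxed controls and 144.5 to 3540 in Adipoq-F2-KO. Mylk, myosin light chain kinase, of the same list, ranged less, at 3499 to 9193 and 3641 to 5179. In floxed 1 and floxed 4 it was at 3499 and 3980 where Myh11 was at 64.8 and 82.0, so Mylk alone is a poor measure of muscle here. Adipocyte markers, of which 2 of 5 were high enough to test, summed to 8.51 to 575 normalized counts in the floxed controls and 9.47 to 262 in Adipoq-F2-KO. Ffar2, the gene of the deleted receptor, had few reads in both genotypes, with raw counts of 12, 18, 2 and 11 in floxed controls and of 13, 12, 6 and 3 in Adipoq-F2-KO mice, which does not check a deletion made in adipocytes. The labels number the libraries and do not say whether each came from 1 animal, so the tests below measure the spread between these 8 libraries. In bulk tissue, fewer cells of a type and less RNA per cell cannot be told apart.

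None of the 9 tested genes passed the genotype test after adjustment over all genes (DESeq2, adjusted p = 0.9998 for each), in a comparison that called 6 of 15986 genes (0.0375%). With edgeR and with limma-voom 0 of the 9 passed as well. At an unadjusted p below 0.05 DESeq2 called 0 of the 9, edgeR 1 and limma-voom 1, which was Axin2 in both, beside 3.03% of all tested genes in DESeq2 (1.65% higher and 1.38% lower in Adipoq-F2-KO). The shares of all genes with edgeR and limma-voom are not given here. In 0 of the 9 genes did the 2 groups of 4 libraries lie apart without overlap, which 2.12% of all tested genes did. The fitted log2 fold change, Adipoq-F2-KO over floxed controls, was above 0 in 3 genes (Olfm4, Sox9, Znrf3) and below 0 in 6, with a median of −0.08 beside −0.01 over all tested genes. That median was 0.001 without floxed 1 and 0.018 without floxed 3. The 95% intervals of all 9 genes lay between −1 and 1 on the log2 scale, so a 2-fold difference in either direction lay outside each interval.

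**Figure D1:**
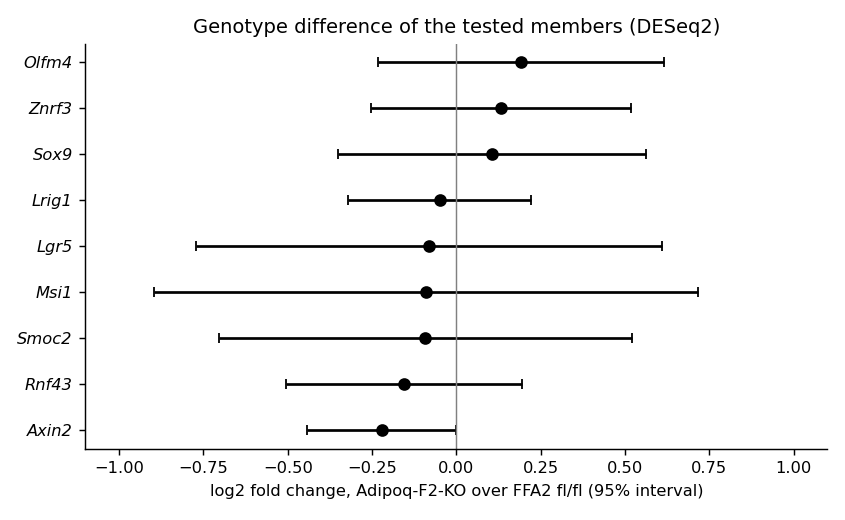
Log2 fold change of each tested gene, Adipoq-F2-KO over FFA2 fl/fl, with points for the DESeq2 estimate and bars for its 95% interval (4 libraries per genotype). The 9 intervals reach 0 or cross it, and Axin2 is the lowest at −0.22.

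Lgr5 (ENSMUSG00000020140, chr10:115450311-115587780, minus strand) codes for the R-spondin receptor that marks the cycling stem cells of the crypt base. It was detected at 22 to 84 raw counts per library. Floxed controls 1 to 4 had 47.3, 44.3, 52.3 and 23.2 normalized counts (counts divided by the size factor of the library), and Adipoq-F2-KO libraries 1 to 4 had 40.3, 24.8, 44.1 and 50.8. A low library stood in each genotype, floxed 4 and Adipoq-F2-KO 2, and the other 6 lay close together, so the groups overlapped almost wholly. The means were 41.8 ± 12.8 and 40.0 ± 11 (SD, n = 4 each), a difference of −0.08 on the log2 scale (standard error 0.35, 95% interval −0.77 to 0.61).

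Olfm4 (ENSMUSG00000022026, chr14:79984081-80023139, plus strand), a secreted glycoprotein of crypt base cells whose promoter is shown above, was the most abundant of the 10. Its normalized counts were 1246, 875, 845 and 605 in the floxed controls and 1246, 819, 1019 and 995 in Adipoq-F2-KO. The highest library of each genotype carried the same level, and only floxed 4 lay below the whole range of the other genotype. The means were 892.8 ± 265 and 1020 ± 175 (SD, n = 4 each), a difference of 0.19 on the log2 scale (standard error 0.22, 95% interval −0.23 to 0.61). Without floxed 1 it was 0.40, at an unadjusted p of 0.0357 (DESeq2), and over the 18 alternative settings it ran from 0.04 to 0.40.

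Ascl2 (ENSMUSG00000009248, chr7:142966829-142969264, minus strand), a basic helix-loop-helix factor that holds the stem cell state, was near the limit of detection. Raw counts were 14, 13, 0 and 7 in the floxed controls and 6, 13, 5 and 0 in Adipoq-F2-KO. Both libraries at 0, floxed 3 and Adipoq-F2-KO 4, were among the 3 with fewer than 10000000 counts, where a count of 0 allows up to 3 counts, or 6.27 and 5.64 normalized counts. The normalized means were 5.19 ± 3.68 and 5.70 ± 4.38 (SD, n = 4 each), and a difference was not detectable at this depth.

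Smoc2 (ENSMUSG00000023886, chr17:14279506-14404790, plus strand) codes for a matrix-associated calcium-binding protein of the Lgr5 cell signature, and fibroblasts make it too. Its normalized counts were 144, 152, 245 and 82 in the floxed controls and 118, 141, 116 and 203 in Adipoq-F2-KO. The whole span of the 8 libraries, 2.98 times from the lowest to the highest, lay inside the floxed group, where floxed 3 was the highest and floxed 4 the lowest of all 8. The means were 155.7 ± 67.1 and 144.7 ± 40.5 (SD, n = 4 each), a difference of −0.09 on the log2 scale (standard error 0.31, 95% interval −0.71 to 0.52).

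Axin2 (ENSMUSG00000000142, chr11:108920349-108950783, plus strand), the scaffold of the β-catenin destruction complex and a direct Wnt target, had the smallest p of the 9. Normalized counts were 462, 500, 548 and 477 in the floxed controls and 402, 394, 444 and 466 in Adipoq-F2-KO. Adipoq-F2-KO 1, 2 and 3 lay below every floxed control, and Adipoq-F2-KO 4 lay just above floxed 1, the lowest of them. The means were 496.7 ± 37.5 and 426.7 ± 34.4 (SD, n = 4 each), a difference of −0.22 on the log2 scale (standard error 0.11, 95% interval −0.44 to 0.00). Its unadjusted p was 0.0501 in the DESeq2 fit of all 8 libraries, 0.0415 with edgeR, 0.0387 with limma-voom and 0.0329 without Adipoq-F2-KO 4 (DESeq2), and over the 18 alternative settings its adjusted p was never lower than 0.663. An antisense gene, Gm11670, overlaps Axin2 exons and held 71 counts over all libraries, and without a stated strand setting the reads of such a pair cannot be told apart.

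Rnf43 (ENSMUSG00000034177, chr11:87662722-87735539, plus strand) and Znrf3 (ENSMUSG00000041961, chr11:5276324-5444847, minus strand) are the paired ubiquitin ligases that remove Frizzled receptors from the cell surface. Rnf43 had 674, 498, 393 and 493 normalized counts in the floxed controls and 475, 480, 519 and 382 in Adipoq-F2-KO. The floxed values spanned the Adipoq-F2-KO values except the lowest, and floxed 1 stood above the rest. Its log2 fold change was −0.16 (standard error 0.18, 95% interval −0.51 to 0.20), between means of 514.5 ± 117 and 464 ± 58.2 (SD, n = 4 each). Znrf3 had 94.5, 84.9, 121 and 79.7 normalized counts in the floxed controls and 90.0, 103, 114 and 103 in Adipoq-F2-KO, which lay within the floxed range. Its log2 fold change was 0.13 (standard error 0.20, 95% interval −0.25 to 0.52), between means of 95.1 ± 18.5 and 102.6 ± 9.87 (SD, n = 4 each). Both estimates were smaller than their standard errors, and they had opposite signs.

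Sox9 (ENSMUSG00000000567, chr11:112782224-112787760, plus strand), a transcription factor of crypt progenitors and Paneth cells, had 173, 116, 148 and 104 normalized counts in the floxed controls and 178, 109, 140 and 154 in Adipoq-F2-KO. Low and high libraries stood in both genotypes. On the log2 scale the difference was 0.11 (standard error 0.23, 95% interval −0.35 to 0.56), between means of 135.4 ± 31.1 and 145.5 ± 28.9 (SD, n = 4 each).

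Lrig1 (ENSMUSG00000030029, chr6:94604529-94700158, minus strand), an inhibitor of EGF receptors that marks a broad group of crypt cells, was among the steadiest of the 10. Its normalized counts were 340, 338, 393 and 358 in the floxed controls and 283, 355, 342 and 400 in Adipoq-F2-KO, and the Adipoq-F2-KO libraries held both the lowest and the highest value. On the log2 scale the difference was −0.05 (standard error 0.14, 95% interval −0.32 to 0.22), between means of 357.2 ± 25.5 and 345.2 ± 48.6 (SD, n = 4 each). Lrig1 exons overlap Slc25a26 on the opposite strand, which held 533 counts over all libraries. Msi1 (ENSMUSG00000054256, chr5:115429599-115455698, plus strand), an RNA-binding protein of stem and progenitor cells, had 42.4, 33.7, 12.6 and 29.4 normalized counts in the floxed controls and 32.4, 21.7, 44.1 and 18.8 in Adipoq-F2-KO. The lowest value rested on 6 raw counts in floxed 3, and the ranges overlapped. On the log2 scale the difference of Msi1 was −0.09 (standard error 0.41, 95% interval −0.90 to 0.72), the widest interval of the 9, between means of 29.5 ± 12.5 and 29.2 ± 11.5 (SD, n = 4 each).

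**Figure D2:**
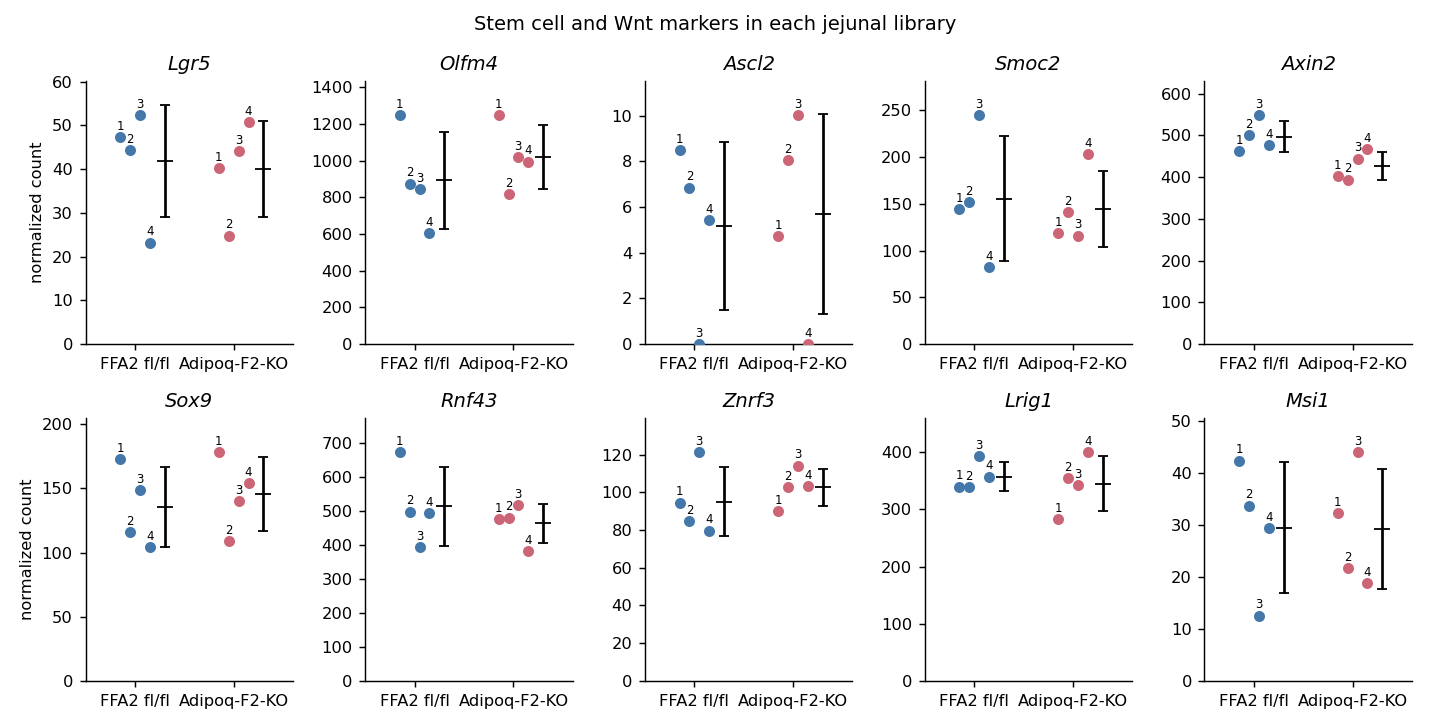
Normalized counts of the 10 genes in each library (points numbered by replicate, FFA2 fl/fl left, Adipoq-F2-KO right), with the mean and SD of 4 libraries beside them. The genotypes overlap in every panel, and in Axin2 3 of 4 Adipoq-F2-KO libraries lie below all floxed controls.

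The genes differed far more from each other than between genotypes. Levels were compared as counts per kilobase of exon, scaled to a sum of 1000000 in each library (TPM), as means over the 8 libraries. Olfm4 was at 86.7 (53.4 to 121), Axin2 at 22.4, Rnf43 at 20.2, Lrig1 at 16.8, Sox9 at 9.07, Smoc2 at 5.74, Znrf3 at 3.34, Msi1 at 1.37, Lgr5 at 1.06 and Ascl2 at 0.925. Ranges did not overlap between Olfm4 and Axin2, between Lrig1 and Sox9, or between Znrf3 and Msi1, and every other pair of neighbours in this order overlapped. So the secreted marker Olfm4 stood alone at the top, the feedback genes Axin2 and Rnf43 and the EGF receptor inhibitor Lrig1 formed a middle group, and Msi1, the receptor Lgr5 and the factor Ascl2 were at the bottom. With the longest transcript in place of all exons, Rnf43 (25.7 TPM) stood above Axin2 (24.3 TPM), Smoc2 (8.46 TPM) above Sox9 (7.63 TPM), and Lgr5 was at 1.90 TPM and Msi1 at 2.12 TPM.

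The spread over all 8 libraries also differed among the genes. The highest library was 1.39 times the lowest for Axin2, 1.42 times for Lrig1, 1.52 times for Znrf3, 1.71 times for Sox9 and 1.77 times for Rnf43. It was 2.06 times the lowest for Olfm4, 2.25 times for Lgr5, 2.98 times for Smoc2 and 3.51 times for Msi1. The widest of these spreads were those of Smoc2 and Msi1, and Msi1 and Lgr5 rested on few counts. Ascl2, which ran from 0 to 10.0 normalized counts, has no such ratio and is outside this order. Single libraries recurred at the extremes. Floxed 4 was the lowest of 8 in 5 genes, Lgr5, Olfm4, Smoc2, Sox9 and Znrf3, and floxed 3 was the highest in 4, Lgr5, Smoc2, Axin2 and Znrf3, and the lowest in Msi1 and, at 0 counts like Adipoq-F2-KO 4, in Ascl2.

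RNA of Paneth cells, which neighbour the stem cells and supply Wnt3 and EGF, varied over the same libraries. Among 10 Paneth cell genes, 5 were higher and 5 lower in Adipoq-F2-KO, with a median log2 fold change of 0.01 that was −0.24 without Adipoq-F2-KO 4 and 0.22 without floxed 3. Normalized counts of Lyz1, lysozyme, ran from 2622 in floxed 4 to 7736 in Adipoq-F2-KO 4, and those of Defa24, a defensin of a family of near-identical genes whose counts are uncertain, from 739 in floxed 4 to 3549 in floxed 3. A Paneth cell score, the mean of the centred log2 values of the 10 genes, was lowest in floxed 4 (−1.02) and highest in Adipoq-F2-KO 4 (0.63) and floxed 3 (0.54). This score was added after the library values of the members had been seen, so its relation to them is a description of these 8 libraries. The p-values printed with it below do not allow for that choice and cannot serve as a test.

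Lgr5 followed the Paneth cell score from library to library (Pearson's r = 0.873, exact permutation p = 6.2e-04, adjusted over the 10 genes 0.0062; Spearman's rho = 0.905, exact permutation p = 0.00456, adjusted 0.0456). Without floxed 4 and Adipoq-F2-KO 4, the libraries farthest from the median score, r was 0.74 (exact permutation p = 0.0806), so the small p rested on them. Smoc2 had an r of 0.879 (exact permutation p = 0.00489, adjusted 0.0244) and a rho of 0.81 (exact permutation p = 0.0218, adjusted 0.109), and an r of 0.709 without the same libraries (exact permutation p = 0.0958). Sox9 (r = 0.737, rho = 0.762) and Olfm4 (r = 0.645, rho = 0.5) had higher values of p (exact permutation, adjusted p of r 0.105 and 0.207) and were at r = 0.623 and 0.209 without those libraries, and r over the other 6 genes ran from −0.634 for Ascl2 to 0.571 for Znrf3. Of the Wnt feedback genes, Axin2 had an r of 0.254, Rnf43 of −0.294 and Znrf3 of 0.571 (exact permutation, adjusted p 0.547, 0.547 and 0.228). Within the 5 libraries of at least 10000000 counts, too few for a test, r was 0.871 for Lgr5, 0.813 for Smoc2, 0.781 for Sox9, 0.941 for Olfm4, −0.183 for Axin2, 0.506 for Rnf43 and 0.511 for Znrf3. Differences between these correlations were not tested.

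**Figure D3:**
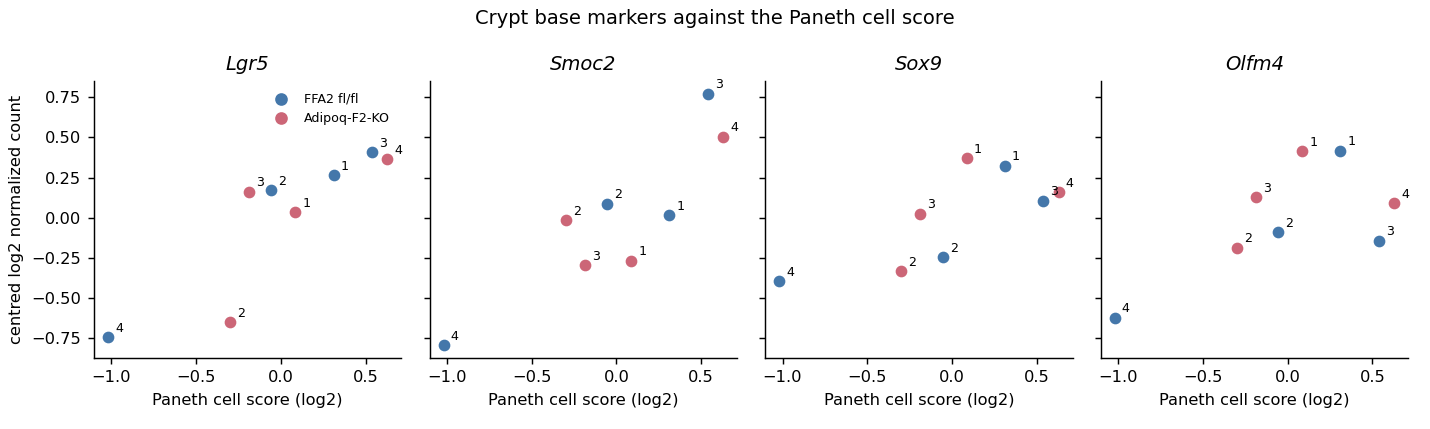
Log2 normalized counts of Lgr5, Smoc2, Sox9 and Olfm4, centred on the 8 libraries, against the Paneth cell score (points numbered by replicate, colour by genotype). Floxed 4, at −1.02 on the score, is the lowest point of all 4 panels.

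None of the 10 genes passed the test for a relation to smooth muscle RNA after adjustment (exact permutation). The smooth muscle score, built in the same way from 10 genes, was highest in floxed 3 (3.08) and lowest in floxed 1 (−2.40) and floxed 4 (−2.36). Smoc2 had an r of 0.823 with it (exact permutation p = 0.0114, adjusted over the 10 genes 0.105) and a rho of 0.738 (exact permutation p = 0.0458, adjusted 0.258), and 0.915 for r without floxed 1 and floxed 4. Rnf43 (r = −0.746, rho = −0.667) and Msi1 (r = −0.755, rho = −0.643) had the most negative values (exact permutation, adjusted p of r 0.105 for both). Lgr5 had an r of 0.409 and a rho of 0.571 (exact permutation, adjusted p 0.381 and 0.258). Within the 5 libraries of at least 10000000 counts, too few for a test, r was 0.598 for Smoc2, −0.475 for Rnf43, −0.545 for Msi1 and −0.052 for Lgr5. The smooth muscle list was lower in Adipoq-F2-KO in 10 of 10 genes by the fitted fold change, while 48.5% of all tested genes were higher. Its median was −0.85 on the log2 scale, and 0 of the 10 passed the test (DESeq2). Its summed normalized count was 3768 to 30430 in the floxed controls and 4149 to 12590 in Adipoq-F2-KO, and its part in the level of Smoc2 was not tested beyond the fit with the score as a covariate, which called 0 of the 9 genes after adjustment. Most of the lowest sum was Mylk, at 3499 normalized counts in floxed 1. The stromal fibroblast score, from 6 tested genes, was also highest in floxed 3 (2.26), followed by Adipoq-F2-KO 4 (1.48), and lowest in floxed 4 (−2.31) and floxed 1 (−2.04). Its summed normalized count was 79.7 to 1587 in the floxed controls and 183.1 to 962.6 in Adipoq-F2-KO, at a median log2 fold change of −0.025, and its part in the level of Smoc2 was not tested.

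The genes most like Lgr5 were sought among 10218 genes with a mean of at least 50 normalized counts, by Pearson's r of log2 normalized counts over the 8 libraries. They were Gm14851 (r = 0.982, rho = 0.905), Ghr, the growth hormone receptor (0.950 and 0.833), Pgm2l1, a sugar phosphate enzyme (0.950 and 0.643), Ptprd, a receptor phosphatase (0.944 and 0.881), and Washc3, a subunit of the endosomal WASH complex (0.943 and 0.857). Gm14851 ran from 44.1 normalized counts in floxed 4 to 112.8 in Adipoq-F2-KO 4, and Ghr from 106.8 in floxed 4 to 293.8 in floxed 1. The lowest library of Lgr5, floxed 4, was thus also the lowest of these genes except Pgm2l1 and Ptprd, whose lowest was Adipoq-F2-KO 2. The highest of many values is high by selection, and no test is attached to these. Among the 10 genes themselves, Lgr5 had an r of 0.73 with Sox9, 0.697 with Smoc2 and 0.642 with Olfm4.

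Other genes of stem cells gave few calls. Of 20 further genes of the crypt base signature, 18 were tested, 11 were higher and 7 lower in Adipoq-F2-KO, 0 passed at an adjusted and 0 at an unadjusted p below 0.05 (DESeq2), and the median log2 fold change was 0.04 (−0.06 without floxed 4 and 0.08 without floxed 3). The genes of that list with the highest level per length were Vdr, the vitamin D receptor (normalized means of 5153 and 5018, log2 fold change −0.04), and Lgr4, the R-spondin receptor of the whole crypt (1100 and 1317, 0.26). Of 9 genes of reserve and regenerative stem cells, 7 were tested, and 1, Clu, had an unadjusted p below 0.05, beside 1.65% of all genes called in that direction. Without floxed 3, 3 were called, in a fit that called more of all genes after adjustment. The unadjusted share of all genes in that fit is not given here.

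Clu, clusterin, which marks stem cells that appear after injury, had 21.8, 88.6, 100.4 and 24.8 normalized counts in the floxed controls and 75.8, 165, 146 and 143 in Adipoq-F2-KO. Adipoq-F2-KO 2, 3 and 4 lay above all floxed controls, and Adipoq-F2-KO 1 lay within their range. Its log2 fold change was 1.19, standard error 0.47 (adjusted p in DESeq2 0.9998). With the smooth muscle score as a covariate it was 1.24 at an adjusted p of 0.00271 (DESeq2), the lowest of 18 settings. How many of all genes that fit called is not given here. Immune cell markers moved over the same libraries. Of the macrophage markers 7 of 7 and of the tested B and plasma cell markers 5 of 5 had a log2 fold change above 0, beside 48.5% of all tested genes. The medians were 0.61 and 0.96, and 0 of either were called (DESeq2, unadjusted p below 0.05). The macrophage list summed to 133.9 to 439.1 normalized counts in the floxed controls and 300 to 556.5 in Adipoq-F2-KO, the B and plasma cell list to 381.5 to 2784 and 979.6 to 2020, and the scores of both were lowest in floxed 1 and floxed 4, as was Clu. Their part in the level of Clu was not tested. The other genes of that list that the naming rule took were Il33, an epithelial alarmin (log2 fold change 0.52), and Hopx, a marker of quiescent crypt cells (−0.25), both without a call.

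The Wnt ligands were scarce in the mucosa. Of 21 genes of ligands and their secretion, 13 were too low to test, with Wnt3a at no read in any library, and of the 8 tested 1 had an unadjusted p below 0.05, beside 3.03% of all tested genes. Wnt3, the ligand that Paneth cells make, had 13.9, 8.96, 14.6 and 11.6 normalized counts in the floxed controls and 26.1, 21.1, 22.0 and 22.6 in Adipoq-F2-KO. The 4 Adipoq-F2-KO libraries lay above all floxed controls, on 152 counts in total over the 8 libraries, and 2.12% of all tested genes had no overlap. Its log2 fold change was 0.95, standard error 0.39 (adjusted p in DESeq2 0.9998), and the adjusted p was never lower than 0.433 in the 16 settings that tested it. Its unadjusted call was lost in 3 of these, the replicate block and the fits without floxed 2 or Adipoq-F2-KO 1. Porcn, which lipidates Wnt proteins for secretion and was named after its values were seen, had 8.51 to 14.6 normalized counts in the floxed controls and 0 to 8.01 in Adipoq-F2-KO, without overlap, on 71 counts in total (log2 fold change −0.91, adjusted p in DESeq2 0.9998). Wnt2b, a stromal ligand (70.9 and 71.7 normalized counts), and Wls, the carrier that exports Wnt proteins (104.5 and 105.9), differed by less than their spread between libraries. The 4 R-spondins were below the test's minimum, with 49 counts over all libraries for Rspo3, of which 12, 13 and 12 were in floxed 2, floxed 3 and Adipoq-F2-KO 4, and 23 for Rspo1, 17 for Rspo2 and 2 for Rspo4.

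Some receptors were abundant by contrast, and others were as scarce as the ligands. Ror1, Fzd3 and Fzd2 had means of 9.79, 12.7 and 14.9 normalized counts over all libraries, beside 17.6 for Wnt3. Of 17 receptor genes 14 were tested, 7 higher and 7 lower, 0 at an unadjusted p below 0.05 (DESeq2), at a median of 0.02 that was 0.24 without floxed 3, where 2 were called higher, and −0.29 without Adipoq-F2-KO 4. The fit without floxed 3 called more of all genes after adjustment than the fit of all libraries, and its unadjusted share is not given here. Fzd4, a Frizzled named after its values were seen, had 240.5 to 284.0 normalized counts in the floxed controls and 149.2 to 232.2 in Adipoq-F2-KO, without overlap, as in 2.12% of all tested genes (log2 fold change −0.32, standard error 0.18, adjusted p in DESeq2 0.9998). The receptors included Fzd5, the main epithelial Frizzled (normalized means 2989 and 3210, log2 fold change 0.11), and Lrp5 (2130 and 1965, −0.12), which had the highest levels per length. Among 18 genes of the β-catenin destruction and transcription complexes, 17 were tested and 3 had an unadjusted p below 0.05, beside 3.03% of all tested genes. Tcf7l2, the main TCF factor of the intestinal epithelium, had 1623, 1668, 2585 and 1771 normalized counts in the floxed controls and 2472, 2388, 2451 and 2982 in Adipoq-F2-KO. Floxed 3 lay among the Adipoq-F2-KO libraries and the other floxed controls below all of them.

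For Tcf7l2 this gave a log2 fold change of 0.43, standard error 0.17 (adjusted p in DESeq2 0.9998). It was 0.61 without floxed 3 (adjusted p = 7.3e-05, DESeq2) and 0.52 in the 5 libraries of at least 10000000 counts, a set that also leaves out floxed 3 (adjusted p = 5.4e-04). Bcl9, a β-catenin coactivator named after its values were seen, also passed without floxed 3 (0.54, adjusted p = 0.0393, DESeq2). Over all libraries it was at 0.13, with 637.8 normalized counts in floxed 3, 250.8 to 301.8 in the other floxed controls and 356.0 to 453.1 in Adipoq-F2-KO. Bcl9l, a paralogue of Bcl9, had normalized means of 668.9 ± 95.3 and 531.7 ± 70.4 (SD, n = 4 per genotype; log2 fold change −0.35 with a standard error of 0.15, adjusted p in DESeq2 0.9998), and −0.53 at an adjusted p of 0.0184 in the 5 libraries. Gsk3b, the kinase that marks β-catenin for degradation, had 2879 to 3096 normalized counts in the floxed controls and 3231 to 3382 in Adipoq-F2-KO, without overlap, as in 2.12% of all tested genes, and 0.15 higher on the log2 scale (standard error 0.07, adjusted p in DESeq2 0.9998). At an unadjusted p, Tcf7l2 was called in 18 of 18 settings, Bcl9l in 11 and Gsk3b in 6. Ctnnb1, β-catenin itself, had a log2 fold change of 0.09 and Csnk1a1, the priming kinase of the complex, −0.03, both without a call.

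Secreted antagonists were low, with 9 of 13 genes below the test's minimum and 3 of these, Dkk1, Sfrp4 and Sost, at no read in any library. The 4 tested were lower in Adipoq-F2-KO by the fitted fold change, at a median of −0.39, and 0 had an unadjusted p below 0.05 (DESeq2). The median was 0.16 without floxed 3 and −0.03 with limma-voom, so the direction of the median rested on that library. Dkk3 and Sfrp1 peaked in floxed 3 (79.5 and 73.2 normalized counts, others 3.10 to 41.4 and 5.42 to 54.5), the library with the highest smooth muscle score. Dkk4 (14.6) and Sfrp5 (6.27) did not, and lay there below their floxed means of 16.5 and 12.0. Sfrp1 and Sfrp5 were named after their values were seen. Dkk4, itself a Wnt target (normalized means 16.5 and 12.3, log2 fold change −0.45), and Dkk3 (29.5 and 23.0, −0.33) had the highest level per length. Of 13 other Wnt target genes, 12 were tested, 9 higher and 3 lower, with a median of 0.13 (0.35 without floxed 3 and 0.07 without floxed 4). Ccnd1, cyclin D1, was the 1 with an unadjusted p below 0.05, beside 1.65% of all tested genes called in that direction. Ccnd1 was at 171.3 ± 79.8 and 249.3 ± 35.4 normalized counts (SD, n = 4 per genotype; log2 fold change 0.57, adjusted p in DESeq2 0.9998), and 0.91 at an adjusted p of 1.7e-04 without floxed 3 and 0.78 at 0.0322 in the 5 libraries. Its unadjusted call was lost in 8 of 18 settings, with edgeR, after thinning and without floxed 1, 2 or 4 or Adipoq-F2-KO 1, 3 or 4. Mmp7 (0.04) and Sp5 (−0.11), a Wnt-induced repressor, differed by less than their spread between libraries.

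**Figure D4:**
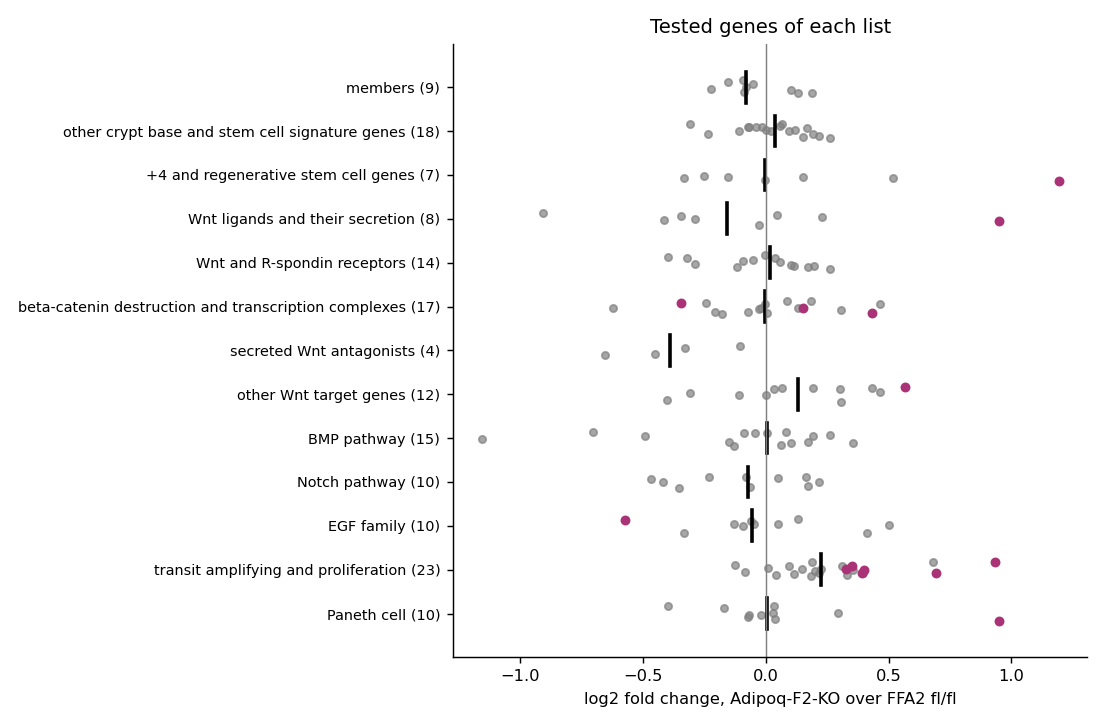
DESeq2 log2 fold change of every tested gene of each list (number tested in parentheses), Adipoq-F2-KO over FFA2 fl/fl, with black bars for medians and purple points for genes at an unadjusted p below 0.05. The members centre on −0.08, and the transit amplifying and proliferation list on 0.23 with 6 purple points.

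The pathways that act beside Wnt in the crypt gave few calls. Of 15 tested BMP pathway genes 0 had an unadjusted p below 0.05 (DESeq2), at a median log2 fold change of 0.01. Without floxed 3 there were 3, all higher, at a median of 0.25, and in the 5 libraries of at least 10000000 counts 1, higher, at 0.21. Both fits called more of all genes after adjustment than the fit of all libraries. Their shares at an unadjusted p are not given here, so these counts and those below from such fits stand without a background. The genes of this list included Id1 (−0.15) and Smad7 (0.01), targets and brakes of that pathway, which had its highest levels per length. Of 10 tested Notch pathway genes 0 had an unadjusted p below 0.05 (DESeq2), at a median of −0.07, and without floxed 3 there were 1 higher and 1 lower, at 0.06. The gene called lower was Dll1, a Notch ligand of secretory progenitors, at −0.52 there and −0.42 (standard error 0.21) over all libraries. It was called lower in 7 of 18 settings, also with TMM factors, epithelial reference factors, at least 10 counts in all 8 libraries and without floxed 1, floxed 2 or Adipoq-F2-KO 2. Dll1 was not called without floxed 4, which held 1193 normalized counts of it, against 621.1 to 717.3 in the other floxed controls. The gene called higher without floxed 3 was the receptor Notch2 (0.39), named after its values were seen. Atoh1, the factor that sets the secretory fate, was at −0.08 over all libraries. Of 10 tested EGF family genes 1 had an unadjusted p below 0.05 (DESeq2), beside 1.38% of all genes in that direction, the ligand Hbegf, at 523.4 ± 127 and 348.5 ± 72.2 normalized counts (SD, n = 4 per genotype; log2 fold change −0.57 with a standard error of 0.21, adjusted p in DESeq2 0.9998). In the 5 libraries of at least 10000000 counts it was −0.26 and the unadjusted call was lost. The receptors Erbb3 (0.41) and Erbb2 (0.13) were not called.

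Genes of dividing transit amplifying cells were the list with the most calls at an unadjusted p, 6 of 23, all higher in Adipoq-F2-KO, beside 1.65% of all genes, and 0 of 23 after adjustment (DESeq2). The direction was higher in 21 of 23, beside 48.5% of all tested genes, with a median log2 fold change of 0.23, and the unadjusted calls numbered 3 to 8 over the alternative settings. The shares of all genes in those settings are not given here. Genes of a list can vary together over the same libraries, so such counts are not independent. Beside this, the medians of the macrophage and the B and plasma cell markers were 0.61 and 0.96, and that of 6 T cell markers was 0.29 (4 higher, 2 lower, 1 higher at an unadjusted p below 0.05), with summed counts of 422.9 to 717.3 in the floxed controls and 517.1 to 704.7 in Adipoq-F2-KO. Dividing immune cells also express cell cycle genes, and their part in this list was not tested. Ccne2, cyclin E2, had normalized means of 100.9 ± 39.8 and 188.9 ± 35.03 (SD, n = 4 per genotype; log2 fold change 0.93 with a standard error of 0.28, adjusted p in DESeq2 0.487). Ccnb2, cyclin B2, was above all floxed controls in 4 of 4 libraries, at 67.7 to 91.6 normalized counts against 35.6 to 54.8 (log2 fold change 0.69, DESeq2 adjusted p = 0.742). Mcm4, a subunit of the replicative helicase (0.40), and Ccne1, cyclin E1 (0.68), both named after their values were seen, also lay above all floxed controls in 4 of 4 libraries (DESeq2, adjusted p = 0.9998 for both), as 2.12% of all tested genes had no overlap in either direction. Top2a, the topoisomerase of replicating cells (0.33), and Mki67, the Ki-67 antigen (0.35), were the other genes named by level or p, neither of them near the threshold (DESeq2, adjusted p = 0.9998 for both). With floxed 3 left out, Ccne2 (1.16, DESeq2 adjusted p = 0.00135) and Mki67 (0.47, adjusted p = 0.0438) passed. Ccne2 and Ccnb2 had an unadjusted p below 0.05 in 18 of 18 settings, Top2a in 15 and Mki67 in 11. Whether the difference between this list and the stem cell markers was itself larger than the spread was not tested.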

How the data were processed

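Total RNA of jejunal mucosa was made into poly(A)-selected stranded libraries, single-end reads of 75 bp. The deposited values are raw read counts per Ensembl gene and library, made by the authors with Trimmomatic, STAR and featureCounts. The submitters' processing notes name GRCm38 and mm10. Versions and the strand setting are not given in the sources used here. Of the identifiers, 2147 are newer than GENCODE M21, the annotation used here for symbols, positions and exon lengths, so the counting annotation was a later release and lengths, and TPM values, are approximate. Reads carry no molecular identifiers. The upper limits given for libraries without a read cover counting error only. The SDs and the standard errors of the fits reflect the spread between libraries.

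The 10 members and all lists were chosen with earlier results of these data known. A gene needed 10 counts or more in 4 libraries or more to be tested with DESeq2 1.42.0 (R 4.3.3, default size factors, two-sided Wald test, Benjamini-Hochberg adjustment over 15986 genes, threshold 0.05), the tool the authors used. Normalized counts are counts divided by the size factor. Scores and correlations used log2 of normalized counts plus 0.5, with two-sided exact permutation tests. Named genes were the members, up to 4 genes per list with the smallest unadjusted p below 0.05, the 2 per list with the highest level per length, the 5 most like Lgr5, and 2 smooth muscle and 2 epithelial genes. Alternatives were edgeR 4.0.16, limma-voom 3.58.1, TMM factors, epithelial reference size factors, other filters, a replicate block, a smooth muscle covariate, thinning, the 5 libraries of at least 10000000 counts, and each library left out. The fits were tested on simulated data. Replicate libraries of a genotype differed by more than sampling noise (chi-square per gene 5.80 to 57.8).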

Additional observations from a re-analysis of the deposited data

Results flagged for a closer look

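Libraries that stood apart from the other 3 of their genotype were sought in 126 groups (63 named genes in each genotype) with Dixon's criterion, and 21 were found. Some of these genes were named for their values in these libraries, and some held few counts. The usual rate of about 5% of groups flagged by chance therefore does not apply, and the rate to expect is not known. None of the 21 was a value of the 10 stem cell and Wnt markers.

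Of the 21, 7 were in floxed 3, a library of fewer than 10000000 counts with the highest smooth muscle score. In normalized counts these were Tcf7l2 (2585, others 1623 to 1771), Ccnd1 (290.7, others 124.8 to 138.1), Id1 (1631, others 581.2 to 747), Mki67 (794.6, others 568.9 to 584.5), Myh11 (9682, others 64.8 to 1535), Bcl9 (637.8, others 250.8 to 301.8) and Ccnb2, which was low (35.55, others 51.9 to 54.8). In floxed 4, Dll1 was high (1193, others 621.1 to 717.3), and Pgm2l1 (83.58, others 105.4 to 106.6) and Washc3 (116.1, others 143.4 to 148.5), which are among the genes most like Lgr5, were low.

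In Adipoq-F2-KO 4, Tcf7l2 (2982, others 2388 to 2472), Lyz1 (7736, others 4078 to 4685) and Rspo3 (22.56, others 0.789 to 4.00) were high. In Adipoq-F2-KO 3, Vdr (5380, others 4866 to 4946) and Bcl9l (636.7, others 487.9 to 505.9) were high, and in Adipoq-F2-KO 1, Lrp5 (2088, others 1923 to 1926) and Csnk1a1 (6798, others 5428 to 5640), where Porcn (0, others 7.44 to 8.01) and Fzd4 (149.2, others 229.4 to 232.2) were low. Rspo4 had 1 read in floxed 1 (0.606) and 1 in Adipoq-F2-KO 2 (0.62) and 0 in the other libraries.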

How the results depend on the processing

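The number of markers called after adjustment was 0 in all 18 alternative settings. At an unadjusted p below 0.05 it was 1 with edgeR, limma-voom, TMM factors, no count filter, at least 10 counts in all 8 libraries, the smooth muscle covariate and the 5 libraries of at least 10000000 counts, each time Axin2, and 0 to 1 when 1 library was left out. The shares of all genes at an unadjusted p in these settings are not given here. Over all genes, 6 were called, against 2 with edgeR, 1 with limma-voom, 3 without a filter, 11 with the replicate block, 78 in the 5 libraries, 2 after thinning to 6007654 counts, and 2 (without floxed 1) to 103 (without floxed 3) when 1 library was left out, with 23 without floxed 2 and 3 without floxed 4 or Adipoq-F2-KO 4. The cause was not tested.

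Of 161 comparisons of a marker with an alternative setting, 146 kept the direction of the log2 fold change and 15 reversed it. Olfm4, Axin2 and Znrf3 kept it in all. Smoc2 was at 0.0108 with limma-voom, 0.0365 in the 5 libraries and −0.30 to 0.19 over the fits that left out 1 library, Lgr5 at 0.13 after thinning and −0.29 to 0.12 over those fits, and Msi1 at 0.0174 with the covariate and −0.31 to 0.129 over them. Rnf43 (−0.257 to 0.0012), Sox9 (−0.0202 to 0.261) and Lrig1 (−0.126 to 0.0429) reversed only there. Epithelial reference factors moved the median of all genes from −0.01 to −0.07.

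The replicate numbers did not pair the samples. Deviations of same-numbered libraries correlated at 0.538, 0.289, 0.015 and −0.415, and 2 of 4 floxed libraries matched their own number best. The replicate block called 0 markers. Counts of 0 to 14 for Ascl2 and 6 to 84 for Msi1 and Lgr5 limit what can be detected there.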
